A study of Mus musculus with 8 samples.

Results

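The genes described here build and guard the protein-folding compartment of the cell, the endoplasmic reticulum (ER). They comprise lumenal chaperones and co-chaperones (11 genes), protein disulfide isomerases (4), the machinery of ER-associated degradation (6), the sensors and effectors of the unfolded protein response (6), and the translocon with its TRAP complex and signal peptidase (8). These 35 genes were chosen by symbol as a functional list, with earlier results of these data known. Shares over all genes given beside their counts therefore describe the list and do not test it. All 35 were found among the 34399 symbols of the count tables, each as 1 Ensembl identifier. All 35 passed the low-count filter in each of the comparisons below.

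Secreted and membrane proteins enter the ER through the Sec61 channel, lose their signal peptide and are folded by Hspa5 (BiP), Hsp90b1 (GRP94), the calnexin and calreticulin lectins and the disulfide isomerases. When unfolded clients accumulate, the sensors Ern1 (IRE1), Eif2ak3 (PERK) and Atf6 switch on the unfolded protein response, which raises chaperone and degradation genes through Xbp1, cleaved ATF6 and ATF4. Fibroblasts depend on this machinery because procollagen and other matrix proteins fold there before they are secreted.

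RNA came from cardiac fibroblasts, sorted by GFP from the ventricles of mice that were 8 to 10 weeks old at transverse aortic constriction (TAC, a surgical pressure overload) and were sampled 4 weeks later. The 4 groups had 2 libraries each. The Smad2/3 double knockout libraries, HK15 and HK16 (DKO), carried MerCreMer, a tamoxifen-dependent Cre, in the Postn locus, with Smad2 flox/flox and Smad3 flox/flox alleles, and Postn-Cre control libraries HK3 and HK4 carried the same Cre without floxed alleles in their labels. Tgfbr1/2 DKO libraries HK2 and HK4 carried MerCreMer in the Tcf21 locus with flox/flox alleles of both TGF-beta receptor genes, and its Tcf21-Cre controls, libraries HK6 and HK7, had that Cre with no floxed allele given. All groups shared TAC, a Cre-dependent eGFP reporter in the Rosa locus, and tamoxifen, injected at 100 mg/kg on 2 days and then fed in chow at 40 mg/kg. Deletion and reporter thus act only in cells that express the driver, Postn in activated and Tcf21 in resident fibroblasts. The strain background is not in the labels, nor is the number of animals behind a library, so p-values measure the spread between these libraries, which may be technical. The pairs of groups were sequenced in separate runs, so driver, run and targeted pathway step change together between the comparisons.

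Library totals lay between 21477742 and 32594649 counts. Levels are given in CPM (counts scaled to the library total), and fold changes as log2 of knockout over control with their standard error (SE) from edgeR's quasi-likelihood test, with p-values adjusted by Benjamini-Hochberg over all genes tested and called below 0.05. The targeted genes showed no detectable loss in whole-gene counts: the log2 fold change was -0.19 for Smad2 (adjusted p = 0.746) and -0.26 for Smad3 (adjusted p = 0.701) in Smad2/3 DKO libraries, and -0.24 for Tgfbr1 (adjusted p = 0.533) and 0.25 for Tgfbr2 (adjusted p = 0.535) in Tgfbr1/2 DKO libraries. Such counts do not check the loss of single exons, and the knockouts are named as labelled. Fibroblast markers summed to between 16253 and 36256 CPM in every library, with none of the 10 at 0. Col1a1 and Col1a2, main cargo of the fibroblast ER, fell by 1.69 and 1.44 on the log2 scale in Smad2/3 DKO libraries (adjusted p = 0.00106 for each), and none of the 10 was called in the Tgfbr1/2 comparison. Xist was at 276 and 75.3 CPM in Smad2/3 DKO libraries, against 3.65 and 2.18 CPM in Postn-Cre control libraries, so the sex make-up of these groups may differ and cannot be told apart from genotype. In bulk RNA, fewer cells of a type and less RNA per cell cannot be told apart.

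Promoter sequence was not used to choose the genes. RefSeq promoter windows (GRCm38.p6, 250 bases before to 50 after each transcription start) were at hand for 29 of the 35 members; Hyou1, Manf, Derl1, Atf6, Sec61a1 and Ssr2 had none. The ER stress response element (ERSE), read by ATF6 with NF-Y and first defined in promoters of chaperone genes such as Hspa5, was searched as CCAAT, 9 unspecified bases and CCACG on both strands. It was present in 8 of the 29 members (27.6%), against 37 of 27025 genes with a window (0.137%). Hspa5 is itself a member, so this share describes the list and does not test it. The matched stretches of these 8 are shown because they carry this element, each read 5′ to 3′ on the gene's strand, with the outer parts of each ERSE in capitals.
Calr (chr8:84847060-84847108, minus strand): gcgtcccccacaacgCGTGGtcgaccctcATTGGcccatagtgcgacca
Canx (chr11:50325785-50325833, minus strand): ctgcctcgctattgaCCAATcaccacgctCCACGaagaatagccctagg
Creld2 (chr15:88819505-88819553, plus strand): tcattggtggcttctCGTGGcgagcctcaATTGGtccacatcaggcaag
Dnajc3 (chr14:118937812-118937860, plus strand): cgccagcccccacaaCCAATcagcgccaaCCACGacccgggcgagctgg
Hspa5 (chr2:34772020-34772048, plus strand): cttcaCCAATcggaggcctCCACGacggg
Hsp90b1 (chr10:86705518-86705671, minus strand): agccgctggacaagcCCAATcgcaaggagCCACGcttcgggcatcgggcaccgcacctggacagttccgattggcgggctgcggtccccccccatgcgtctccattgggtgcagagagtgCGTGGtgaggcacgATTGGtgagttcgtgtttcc
Pdia6 (chr12:17266476-17266524, plus strand): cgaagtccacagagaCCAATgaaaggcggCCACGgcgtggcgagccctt
Syvn1 (chr19:6046517-6046565, plus strand): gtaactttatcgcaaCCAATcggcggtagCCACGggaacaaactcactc

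Calr and Creld2 carried the element in reverse, as CGTGG, 9 bases and ATTGG. Hsp90b1 held 2, 1 in each direction. ERSE-II (ATTGG, 1 base, CCACG) was found in Herpud1 and Dnajb11, 2 of the 29 members (6.9%) against 0.0444% of genes, so 10 members held either form (34.5%, against 0.181% of genes). The UPRE core (TGACG followed by TGG), bound by XBP1, was in 0 of 29 members and 0.714% of genes. The CARE core of ATF4 targets (TGATG, 1 base, AAT) was in 0 of 29 members and 1.08% of genes. No match overlapped another, all were searched on both strands, and no match means only that these letters are not in the window. Of the 6 members with a window that were called in the Tgfbr1/2 comparison below, 3 held an ERSE (Calr, Creld2 and Pdia6), and so did 5 of the 23 others.

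**Figure D1:**
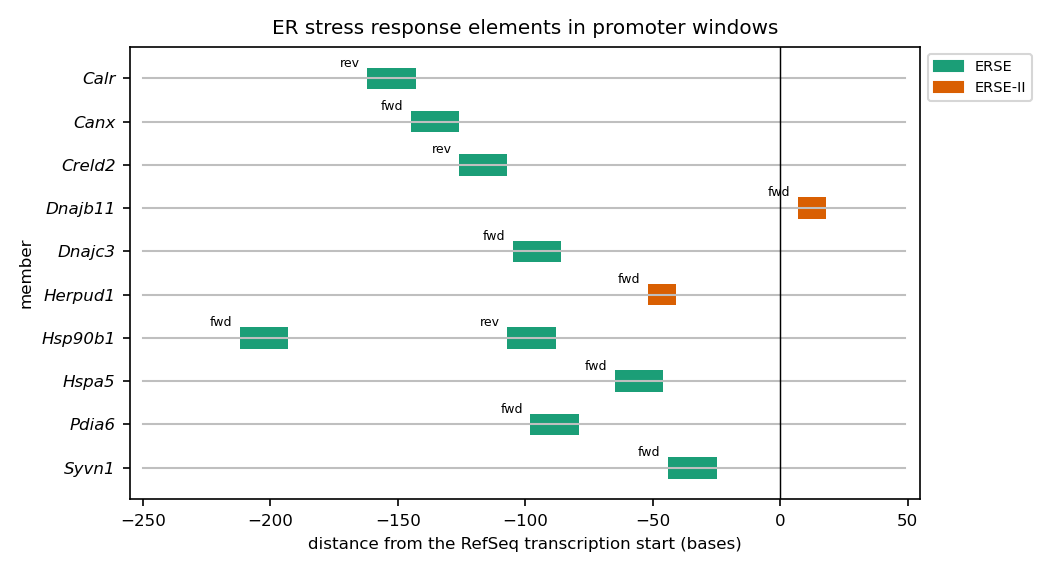
Position of ERSE (green) and ERSE-II (orange) matches in the promoter windows of the 10 members that held one, against distance in bases from the RefSeq transcription start; "fwd" and "rev" give the direction of the element relative to the gene. All ERSE matches lie upstream of the start, from 212 to 26 bases before it, and the Dnajb11 match lies after it.

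Lumenal chaperone genes were called in both knockouts, and in the Tgfbr1/2 DKO libraries disulfide isomerases and translocon genes were called as well. No member passed the test of a difference between the knockout effects given below. DESeq2 also called the isomerases Pdia3 and Pdia6 in the Smad2/3 comparison. In the Smad2/3 comparison, 2 of the 35 members rose, Manf and Creld2, and none fell. All genes tested gave 0.45% called higher and 0.856% called lower (15764 genes). In the Tgfbr1/2 comparison, 10 members rose (Calr, Creld2, Hyou1, Manf, Pdia4, Pdia6, Sdf2l1, Sec61a1, Sec61b and Ssr2) and none fell, where 2.63% of the 16661 genes tested were called higher and 1.31% lower. An unadjusted p below 0.05 was found for 14 members higher and 0 lower in the Smad2/3 comparison, beside 6.23% higher and 7.33% lower of all genes, and for 22 higher and 1 lower (Ddit3) in the Tgfbr1/2 comparison, beside 11.3% and 8.72%. DESeq2 called 9 higher and 0 lower in the Smad2/3 comparison, beside 1.96% higher and 2.76% lower of all genes, and 14 higher and 1 lower (Ddit3) in the Tgfbr1/2 comparison, beside 4.49% and 2.56% of genes with an adjusted p. The median log2 fold change over the 35 members was 0.32 in the Smad2/3 comparison, beside 0.01 for all genes tested, and 0.58 in the Tgfbr1/2 comparison, beside -0.01. Without 1 library at a time, the count of called members was 1 without Smad2/3 DKO HK15 and 4 without Postn-Cre control HK3. In the Tgfbr1/2 comparison it was 6 without DKO HK4, 5 without control HK6 and 6 without control HK7.

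Together the 35 members made up 11421 and 10794 CPM of the Smad2/3 DKO libraries, against 8445 and 7847 CPM of the Postn-Cre control libraries. They made up 9455 and 10287 CPM of the Tgfbr1/2 DKO libraries, against 7139 and 6495 CPM of the Tcf21-Cre control libraries. Both knockout libraries thus exceeded both of their controls in each comparison, and the members' share of all counts ran from 0.65% to 1.14%. Both knockout libraries lay above both control libraries for 19 members in the Smad2/3 comparison, where 25.5% of all genes tested did so, and for 26 members in the Tgfbr1/2 comparison, where 21.8% did so. They lay below both controls for 2 members in each, Ssr2 and Ssr4 in the Smad2/3 DKO libraries, beside 18.9% of all genes, and Eif2ak3 and Ddit3 in the Tgfbr1/2 DKO libraries, beside 29.4%.

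**Figure D2:**
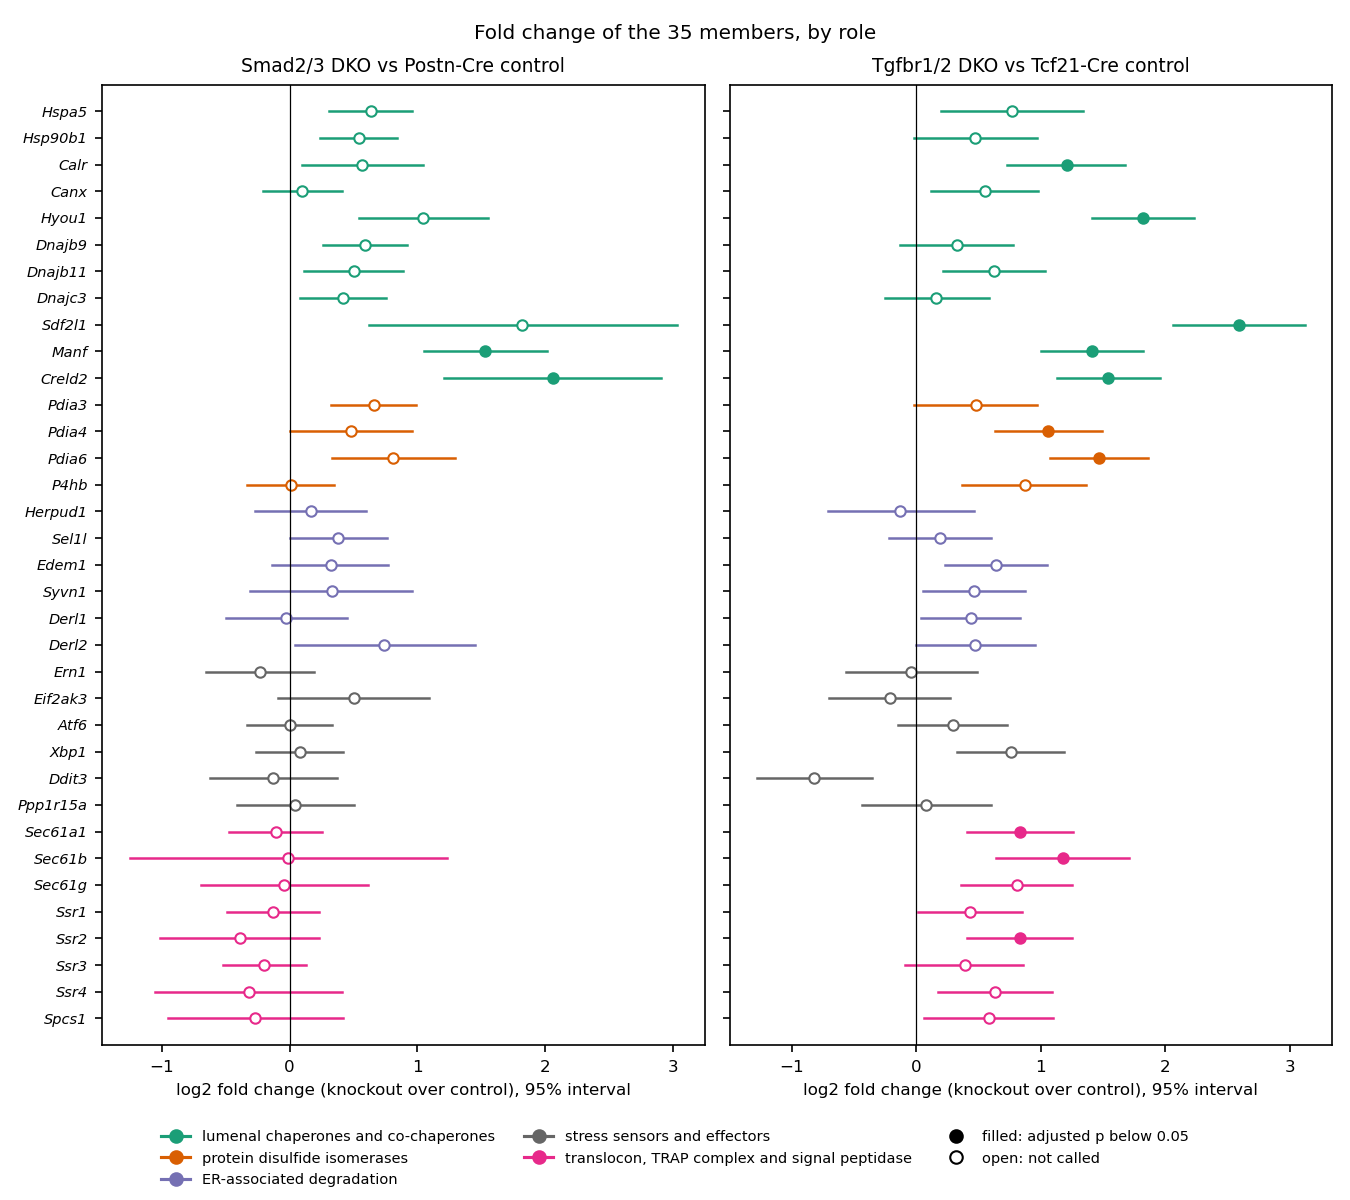
Log2 fold change of each member (point) with its 95% interval (line) in the Smad2/3 comparison (left) and the Tgfbr1/2 comparison (right), ordered and coloured by role; filled points passed the adjusted p threshold. All 11 lumenal chaperones lie above 0 in both panels, whereas all 8 translocon, TRAP and signal peptidase genes lie below 0 on the left (6 of 8 with library totals only) and above 0 on the right.

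Markers of other cells moved beside the Tgfbr1/2 result. The 10 myeloid markers summed to 162 and 166 CPM in Tgfbr1/2 DKO libraries, against 46.0 and 63.0 CPM in Tcf21-Cre control libraries, with none at 0. The largest part of the DKO sums was Lyz2, at 82.5 and 90.6 CPM against 9.9 and 26.6 CPM, not called (2.31, adjusted p = 0.102). Of the 10, 4 were called higher (Emr1, Csf1r, Cd14 and Itgam), beside 2.63% of all genes tested. Both DKO libraries lay above both controls for 9 of the 10, beside 21.8% of all genes. In the Smad2/3 comparison the sum was 28.4 and 30.0 CPM in DKO libraries, against 25.6 and 32.2 CPM in controls, and the defining markers Ptprc, Emr1 and C1qa were at 0 in both DKO libraries, C1qa also in both controls. Itgam was at 9.01 and 12.4 CPM in Smad2/3 DKO libraries, against 3.85 and 4.35 CPM in Postn-Cre control libraries (1.33, adjusted p = 0.184). Endothelial markers summed to 549 and 518 CPM in Tgfbr1/2 DKO libraries, against 457 and 414 CPM in their controls, with 1 of 10 called higher (Eng). They summed to 250 and 159 CPM in Smad2/3 DKO libraries, against 507 and 257 CPM in their controls, with none of 10 called. Pericyte and smooth muscle markers summed to 923 and 682 CPM in Smad2/3 DKO libraries, against 1458 and 791 CPM in their controls, where Kcnj8 was called lower. In the Tgfbr1/2 comparison these were at 578 and 684 CPM in DKO libraries, against 774 and 445 CPM in controls, and Acta2 was called higher. Erythroid genes summed to 135 and 46.9 CPM in Tgfbr1/2 DKO libraries, against 26.1 and 42.7 CPM in their controls, and to 12.7 and 15.7 CPM in Smad2/3 DKO libraries, against 34.8 and 5.92 CPM in theirs, with none called. Cardiomyocyte markers summed to between 564 and 761 CPM and lymphocyte markers to between 3.72 and 8.59 CPM in every library, with none called. Most of each cardiomyocyte sum was the single gene Atp2a2, at 325 to 634 CPM. In the Smad2/3 comparison 8 of the 10 cardiomyocyte markers had a log2 fold change below 0 and 2 above. The part of these cells in the ER results was not tested.

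Manf and Creld2 were the members called in both comparisons, which share no library. Of the 15021 genes tested in both, 5 (0.0333%) were called higher in both, and the other 3 were Dpep1, Mmp3 and Serpina3n. The members were chosen with earlier results of these data known, so this share is no test of the list. Manf (ENSMUSG00000032575, chromosome 9, 106838312 to 106891979) encodes a small ER protein that binds Hspa5 and is secreted under ER stress. It was at 72.2 and 71.7 CPM in Smad2/3 DKO libraries, against 24.2 and 23.8 CPM in Postn-Cre control libraries. In the Tcf21 lineage it was at 70.6 and 71.9 CPM in Tgfbr1/2 DKO libraries, against 28.4 and 28.3 CPM in Tcf21-Cre control libraries. The 2 libraries of each group lay close together, and the knockouts were at nearly the same CPM. They came from separate runs, so these levels are not directly comparable. With library totals only, the median of all genes between the controls of the runs was -0.41, beside -0.07 in the main fit. The fold was 2.88 in the Smad2/3 comparison (log2 fold change 1.53 ± 0.22 (SE, n = 2 libraries per group), adjusted p = 0.006) and 2.66 in the Tgfbr1/2 comparison (log2 fold change 1.41 ± 0.19, adjusted p = 0.00418), and Manf passed under every alternative that was run.

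Creld2 (ENSMUSG00000023272, chromosome 15, 88819646 to 88826683), a secreted and ER-resident protein with a proposed disulfide isomerase activity, was at 55.7 and 48.6 CPM in Smad2/3 DKO libraries, against 17.0 and 6.92 CPM in Postn-Cre control libraries. It was at 66.8 and 63.2 CPM in Tgfbr1/2 DKO libraries, against 23.2 and 23.8 CPM in Tcf21-Cre control libraries. All knockout libraries lay above all controls, although the Postn-Cre control libraries differed from each other more than those of any other group. Its log2 fold change was 2.06 ± 0.38, adjusted p = 0.0273 in the Smad2/3 comparison, a call lost without Smad2/3 DKO HK15 (adjusted p = 0.0919); it was 2.87 without Postn-Cre control HK3 and 1.55 without HK4. In the Tgfbr1/2 comparison it was 1.54 ± 0.19, adjusted p = 0.00259, called under every alternative.

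**Figure D3:**
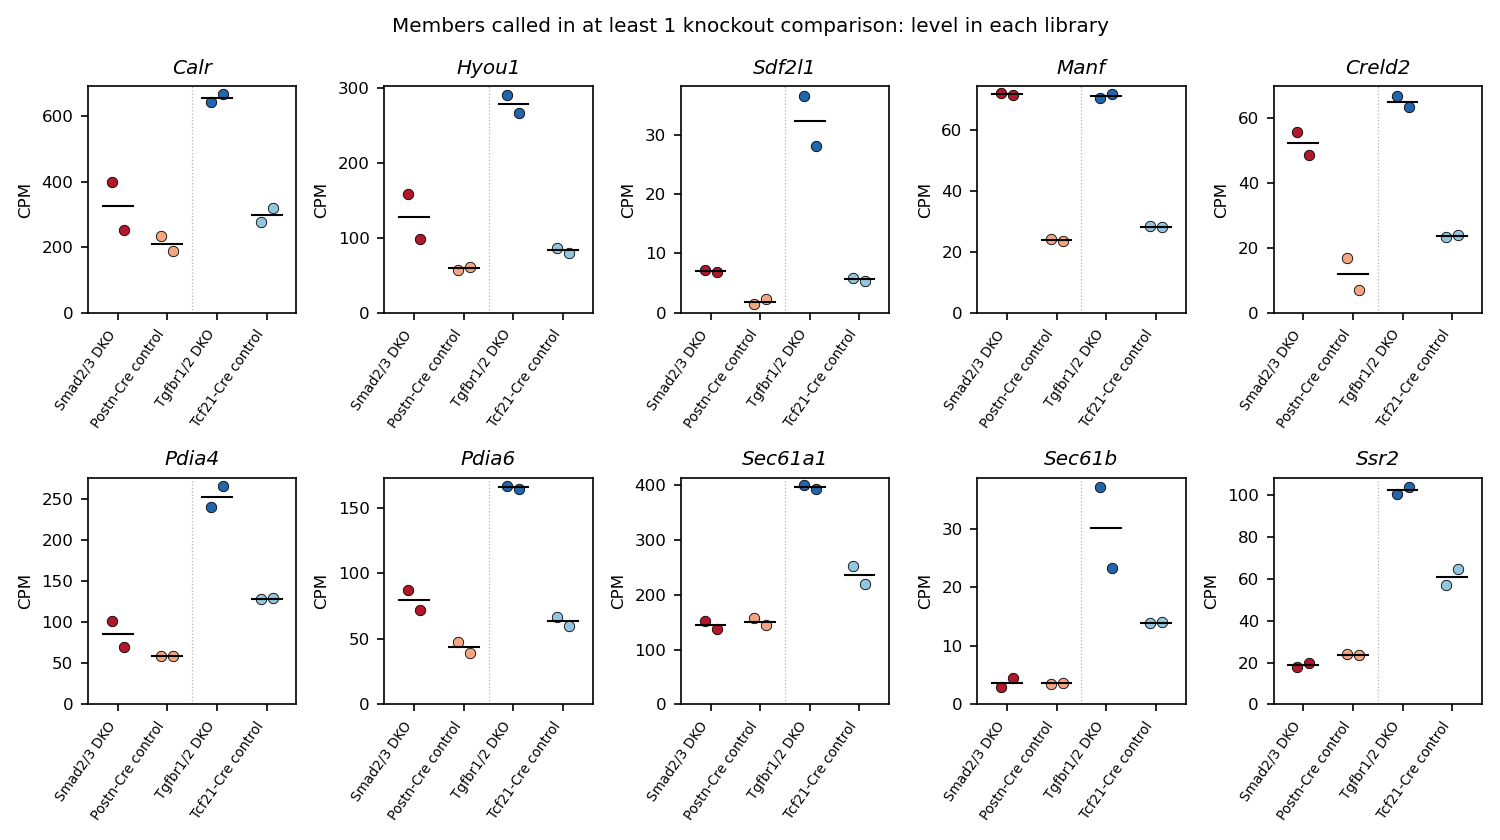
Level in CPM of the 10 members called in at least 1 knockout comparison, with 1 point per library, a line at the mean of each group and the axis from 0. Manf and Creld2 are high in both knockouts, and Sec61a1, Sec61b and Ssr2 lie above their controls in the Tgfbr1/2 DKO libraries.

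Lumenal chaperones and co-chaperones accounted for both calls in the Smad2/3 comparison and for 5 of the 10 in the Tgfbr1/2 comparison. Of the 11, 2 rose in the Smad2/3 comparison (median 0.59), beside 0.45% of all genes tested. In the Tgfbr1/2 comparison 5 rose (median 0.77), beside 2.63%. None fell, and 9 and 6 did not pass in these comparisons by edgeR. DESeq2 called 7 of the 11 higher in the Smad2/3 comparison, beside 1.96% of all genes. These were Creld2, Dnajb9, Hsp90b1, Hspa5, Hyou1, Manf and Sdf2l1. In the Tgfbr1/2 comparison it called 6 higher (Calr, Creld2, Hspa5, Hyou1, Manf and Sdf2l1), beside 4.49%. Both knockout libraries lay above both controls for 11 of 11 in the Smad2/3 comparison, beside 25.5% of all genes tested. They did so for 9 of 11 in the Tgfbr1/2 comparison, beside 21.8%. All 11 log2 fold changes were above 0 in both comparisons under every alternative. Sdf2l1 (chromosome 16, 17130138 to 17132383), a partner of the DnaJ co-chaperones, had the highest log2 fold change of the list, 2.59 ± 0.24, adjusted p = 0.0004 in Tgfbr1/2 DKO libraries, a fold of 6.02. It was at 36.4 and 28.1 CPM in Tgfbr1/2 DKO libraries, against 5.82 and 5.44 CPM in Tcf21-Cre control libraries. In the Postn lineage its level was low, at 7.17 and 6.84 CPM in Smad2/3 DKO libraries, against 1.5 and 2.31 CPM in Postn-Cre control libraries, and the log2 fold change of 1.82 ± 0.55, adjusted p = 0.144 did not pass.

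Hyou1 (chromosome 9, 44379490 to 44392369), the ER's large Hsp70-type exchange factor, was at 291 and 268 CPM in Tgfbr1/2 DKO libraries, against 86.6 and 80.6 CPM in Tcf21-Cre control libraries. The Tgfbr1/2 DKO libraries stood apart from their controls, with a log2 fold change of 1.82 ± 0.18, adjusted p = 0.000869. It was at 158 and 98.6 CPM in Smad2/3 DKO libraries, against 57.7 and 62.0 CPM in Postn-Cre control libraries (1.04 ± 0.23, adjusted p = 0.0584). Calr (chromosome 8, 84841850 to 84846934), the lectin chaperone calreticulin, was at 642 and 667 CPM in Tgfbr1/2 DKO libraries, against 278 and 321 CPM in Tcf21-Cre control libraries. Its log2 fold change was 1.21 ± 0.21, adjusted p = 0.0154, and this p was 0.0638 without Tgfbr1/2 DKO HK4 and 0.0662 without control HK6. In the Smad2/3 comparison Calr was at 399 and 253 CPM in Smad2/3 DKO libraries, against 233 and 188 CPM in Postn-Cre control libraries (0.57 ± 0.21, adjusted p = 0.256), and DKO HK15 was well above DKO HK16.

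The most abundant chaperones had values above their controls without a call in the main edgeR fit of either knockout. DESeq2 called Hspa5 in both comparisons and Hsp90b1 in the Smad2/3 comparison. Without the low-count filter, edgeR called the same genes in the same comparisons. Hspa5, the master chaperone BiP, was at 2384 and 2040.1 CPM in Smad2/3 DKO libraries, against 1465 and 1266 CPM in Postn-Cre control libraries (0.64 ± 0.15, adjusted p = 0.0714). In the Tcf21 lineage it was at 1195 and 1744 CPM in Tgfbr1/2 DKO libraries, against 976 and 869 CPM in Tcf21-Cre control libraries (0.77 ± 0.26, adjusted p = 0.13), with no overlap between groups. Hsp90b1, the ER form of Hsp90, was at 2267 and 2332 CPM in Smad2/3 DKO libraries, against 1579 and 1458 CPM in Postn-Cre control libraries (0.54 ± 0.14, adjusted p = 0.0913). It was at 1338 and 1325 CPM in Tgfbr1/2 DKO libraries, against 1179.9 and 861 CPM in Tcf21-Cre control libraries (0.47 ± 0.22, adjusted p = 0.275), where the controls differed from each other more than the knockouts did. These groups did not overlap either, but the excess was small beside that of Sdf2l1 or Hyou1.

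Canx, the membrane lectin calnexin, was at 511 and 488 CPM in Smad2/3 DKO libraries, against 461 and 435 CPM in Postn-Cre control libraries (0.10 ± 0.14, adjusted p = 0.841). It was at 427 and 429 CPM in Tgfbr1/2 DKO libraries, against 328 and 292 CPM in Tcf21-Cre control libraries (0.55 ± 0.19, adjusted p = 0.148). The DnaJ co-chaperones of Hspa5 had the same order in the Postn lineage: Dnajb9 was at 286 and 299 CPM in Smad2/3 DKO libraries, against 179 and 194 CPM in Postn-Cre control libraries (0.59 ± 0.15, adjusted p = 0.0952), and Dnajc3, which also inhibits eIF2-alpha kinases, at 376 and 326 CPM in Smad2/3 DKO libraries, against 261 and 244 CPM in Postn-Cre control libraries (0.42 ± 0.15, adjusted p = 0.243). In the Tcf21 lineage the groups of both genes overlapped. There Dnajb9 was at 95.3 and 106 CPM in Tgfbr1/2 DKO libraries, against 101 and 70.4 CPM in Tcf21-Cre control libraries (0.33 ± 0.20, adjusted p = 0.41), and Dnajc3 at 222 and 234 CPM in Tgfbr1/2 DKO libraries, against 223 and 209 CPM in Tcf21-Cre control libraries (0.16 ± 0.19, adjusted p = 0.679). Dnajb11 was at a log2 fold change of 0.50 ± 0.18, adjusted p = 0.232 in Smad2/3 DKO libraries and 0.62 ± 0.18, adjusted p = 0.0938 in Tgfbr1/2 DKO libraries, above both controls in each.

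Protein disulfide isomerases form and shuffle the disulfide bonds of secreted proteins. Of the 4, 0 were called in the Smad2/3 comparison (median 0.57). There 2 had an unadjusted p below 0.05 and were higher, beside 6.23% of all genes. DESeq2 called 2, Pdia3 and Pdia6, beside 1.96% higher. In the Tgfbr1/2 comparison 2 rose (median 0.96). There 3 had an unadjusted p below 0.05 and were higher, beside 11.3%, and DESeq2 called 3 (P4hb, Pdia4 and Pdia6), beside 4.49% higher. Of all genes tested, edgeR called 0.45% higher in the Smad2/3 and 2.63% in the Tgfbr1/2 comparison. Pdia6 (chromosome 12, 17266545 to 17284770) was at 167 and 165 CPM in Tgfbr1/2 DKO libraries, against 66.9 and 60.1 CPM in Tcf21-Cre control libraries, a log2 fold change of 1.47 ± 0.18, adjusted p = 0.00259 that passed under every alternative. It was at 87.0 and 71.9 CPM in Smad2/3 DKO libraries, against 48.0 and 39.0 CPM in Postn-Cre control libraries (0.81 ± 0.22, adjusted p = 0.11), again without overlap. Pdia4 (chromosome 6, 47796141 to 47813430) was at 239.6 and 266 CPM in Tgfbr1/2 DKO libraries, against 128 and 129 CPM in Tcf21-Cre control libraries (1.06 ± 0.19, adjusted p = 0.018), a call lost without DKO HK4 (adjusted p = 0.0947), control HK6 (0.0675) and control HK7 (0.0619). It was at 101 and 70.4 CPM in Smad2/3 DKO libraries, against 59.2 and 58.8 CPM in Postn-Cre control libraries (0.48 ± 0.22, adjusted p = 0.371).

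Pdia3, the isomerase that works with calnexin and calreticulin on glycoproteins, was at 1673 and 1710.1 CPM in Smad2/3 DKO libraries, against 1141 and 920.3 CPM in Postn-Cre control libraries (0.66 ± 0.15, adjusted p = 0.0707). It was at 649 and 743 CPM in Tgfbr1/2 DKO libraries, against 492 and 569 CPM in Tcf21-Cre control libraries (0.48 ± 0.22, adjusted p = 0.27). P4hb, the classical isomerase and also the beta subunit of collagen prolyl 4-hydroxylase, was at 724 and 796 CPM in Tgfbr1/2 DKO libraries, against 405 and 477 CPM in Tcf21-Cre control libraries (0.87 ± 0.22, adjusted p = 0.0596). In the Postn lineage P4hb overlapped between groups, at 301 and 269 CPM in Smad2/3 DKO libraries, against 285 and 258 CPM in Postn-Cre control libraries (0.01 ± 0.15, adjusted p = 0.991). For P4hb the isomerase values thus lay apart in 1 lineage, whereas Pdia3, Pdia4 and Pdia6 lay above their controls in both.

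ER-associated degradation returns misfolded proteins to the cytosol for the proteasome. None of its 6 members was called in either comparison, by edgeR or by DESeq2. An unadjusted p below 0.05 was found for 2 in the Smad2/3 comparison, beside 6.23% higher of all genes. It was found for 3 in the Tgfbr1/2 comparison, beside 11.3%, and all of these were higher. The median log2 fold change was 0.32 in the Smad2/3 comparison and 0.45 in the Tgfbr1/2 comparison. Syvn1, the ubiquitin ligase HRD1, was at 88.5 and 86.8 CPM in Tgfbr1/2 DKO libraries, against 76.8 and 58.9 CPM in Tcf21-Cre control libraries (0.46 ± 0.18, adjusted p = 0.202), and at 40.5 and 33.5 CPM in Smad2/3 DKO libraries, against 21.4 and 35.5 CPM in Postn-Cre control libraries (0.33 ± 0.29, adjusted p = 0.701), where the groups overlapped. Sel1l, its scaffold, had a log2 fold change of 0.38 ± 0.17, adjusted p = 0.367 in the Smad2/3 comparison and 0.19 ± 0.19, adjusted p = 0.612 in the Tgfbr1/2 comparison. Edem1, which selects mannose-trimmed clients, had 0.32 ± 0.21, adjusted p = 0.564 in the Smad2/3 comparison and 0.64 ± 0.18, adjusted p = 0.0874 in the Tgfbr1/2 comparison. The channel proteins Derl1 and Derl2 had -0.03 and 0.74 in Smad2/3 DKO libraries and 0.44 and 0.47 in Tgfbr1/2 DKO libraries. Herpud1, a stress-induced scaffold of the ligase complex, had 0.17 in Smad2/3 DKO libraries and -0.13 in Tgfbr1/2 DKO libraries, and its groups overlapped in the Tcf21 lineage.

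None of the 6 stress sensors and effectors was called in either comparison, and the median log2 fold change was 0.02 in both. In the Smad2/3 comparison 0 had an unadjusted p below 0.05, beside 6.23% higher and 7.33% lower of all genes, and DESeq2 called 0. In the Tgfbr1/2 comparison 2 had an unadjusted p below 0.05, Xbp1 higher and Ddit3 lower, beside 11.3% and 8.72%. DESeq2 called the same 2 there, beside 4.49% higher and 2.56% lower. Xbp1, the transcription factor that IRE1 activates by splicing its mRNA, was at 312 and 287 CPM in Tgfbr1/2 DKO libraries, against 213 and 162 CPM in Tcf21-Cre control libraries (0.76 ± 0.19, adjusted p = 0.0588), with no overlap. It was at 229 and 207 CPM in Smad2/3 DKO libraries, against 205 and 191 CPM in Postn-Cre control libraries (0.08 ± 0.16, adjusted p = 0.89); counts per gene do not tell its spliced from its unspliced form. Ddit3, the stress-induced factor CHOP, was at 36.5 and 46.5 CPM in Tgfbr1/2 DKO libraries, against 80.6 and 75.6 CPM in Tcf21-Cre control libraries (-0.82 ± 0.21, adjusted p = 0.0554), so that both Tgfbr1/2 DKO libraries lay below both controls. In the Postn lineage Ddit3 was at 41.0 and 49.0 CPM in Smad2/3 DKO libraries, against 48.2 and 46.3 CPM in Postn-Cre control libraries (-0.13 ± 0.22, adjusted p = 0.875), and the groups overlapped.

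For the sensor genes Ern1 and Atf6 the groups overlapped in both lineages. Ern1 was at 174 and 145 CPM in Smad2/3 DKO libraries, against 151 and 209 CPM in Postn-Cre control libraries (-0.23 ± 0.19, adjusted p = 0.671) and at 65.6 and 91.4 CPM in Tgfbr1/2 DKO libraries, against 101 and 72.2 CPM in Tcf21-Cre control libraries (-0.04 ± 0.24, adjusted p = 0.951). Atf6 was at 373 and 384 CPM in Smad2/3 DKO libraries, against 332 and 395 CPM in Postn-Cre control libraries (0.00 ± 0.15, adjusted p = 0.998) and at 164 and 166 CPM in Tgfbr1/2 DKO libraries, against 168 and 119.9 CPM in Tcf21-Cre control libraries (0.29 ± 0.20, adjusted p = 0.451). Eif2ak3 lay above its controls in Smad2/3 DKO libraries (0.50 ± 0.27, adjusted p = 0.471) and below them in Tgfbr1/2 DKO libraries (-0.21 ± 0.22, adjusted p = 0.641). Ppp1r15a (GADD34), which recruits the phosphatase that ends PERK signalling, overlapped between groups in both, at 152 and 103 CPM in Smad2/3 DKO libraries, against 127 and 110.5 CPM in Postn-Cre control libraries (0.04 ± 0.21, adjusted p = 0.963) and at 249.9 and 347 CPM in Tgfbr1/2 DKO libraries, against 289.6 and 311 CPM in Tcf21-Cre control libraries (0.08 ± 0.23, adjusted p = 0.885).

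Translocon genes were above both controls in the Tgfbr1/2 comparison. In the Smad2/3 comparison 6 of the 8 overlapped with their controls, and Ssr2 and Ssr4 lay below them, beside 18.9% of all genes tested. All 8 members had log2 fold changes below 0 in the Smad2/3 comparison (median -0.16; 0 called, 0 with an unadjusted p below 0.05, and 0 called by DESeq2), although Sec61b and Sec61g were above 0 with library totals only and 1 or 2 of the 8 without any 1 library. All 8 were above 0 in the Tgfbr1/2 comparison (median 0.72), under every alternative. Each lay above both controls without overlap, beside 21.8% of all genes tested, and 3 of them rose, beside 2.63%. Sec61a1 (chromosome 6, 88503579 to 88518905), the pore of the channel, was at 400.4 and 392 CPM in Tgfbr1/2 DKO libraries, against 252 and 219 CPM in Tcf21-Cre control libraries (0.83 ± 0.19, adjusted p = 0.0401). It was at 153 and 138 CPM in Smad2/3 DKO libraries, against 157 and 145 CPM in Postn-Cre control libraries (-0.11 ± 0.16, adjusted p = 0.842), where groups overlapped. Ssr2 (chromosome 3, 88575876 to 88588419), the beta subunit of the TRAP complex that assists insertion, was at 101 and 104 CPM in Tgfbr1/2 DKO libraries, against 56.8 and 64.8 CPM in Tcf21-Cre control libraries (0.83 ± 0.19, adjusted p = 0.0391). In the Postn lineage Ssr2 was at 18.0 and 19.9 CPM in Smad2/3 DKO libraries, against 24.0 and 23.6 CPM in Postn-Cre control libraries (-0.39 ± 0.28, adjusted p = 0.617), with both DKO libraries below both controls. The calls of Sec61a1 and Ssr2 were each lost without any 1 of the 4 libraries: adjusted p was 0.103 and 0.0709 without DKO HK2, 0.193 and 0.207 without DKO HK4, 0.0953 and 0.135 without control HK6, and 0.128 and 0.062 without control HK7.

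Sec61b (chromosome 4, 47474658 to 47483242), a small subunit of the channel, was at 37.1 and 23.3 CPM in Tgfbr1/2 DKO libraries, against 13.8 and 14.1 CPM in Tcf21-Cre control libraries (1.18 ± 0.24, adjusted p = 0.0272). Its call was lost without DKO HK2 (adjusted p = 0.183), control HK6 (0.0803) and control HK7 (0.0784). It was at 3.02 and 4.47 CPM in Smad2/3 DKO libraries, against 3.58 and 3.65 CPM in Postn-Cre control libraries (-0.01 ± 0.56, adjusted p = 0.998), among the lowest levels of the list. Ssr3 was at 577 and 642 CPM in Tgfbr1/2 DKO libraries, against 554 and 438 CPM in Tcf21-Cre control libraries (0.39 ± 0.21, adjusted p = 0.349) and at 695 and 823 CPM in Smad2/3 DKO libraries, against 816 and 858 CPM in Postn-Cre control libraries (-0.20 ± 0.15, adjusted p = 0.626). Ssr4, on chromosome X, was at 42.0 and 36.0 CPM in Tgfbr1/2 DKO libraries, against 24.2 and 28.7 CPM in Tcf21-Cre control libraries (0.63 ± 0.21, adjusted p = 0.125) and at 11.7 and 13.5 CPM in Smad2/3 DKO libraries, against 14.9 and 15.4 CPM in Postn-Cre control libraries (-0.32 ± 0.33, adjusted p = 0.751), the groups that also differed in Xist. Sec61g, Ssr1 and Spcs1, a signal peptidase subunit, had 0.81, 0.43 and 0.58 in the Tgfbr1/2 comparison and -0.04, -0.13 and -0.27 in the Smad2/3 comparison, none called. Near copies elsewhere in the genome (at least 95% identity over at least 200 bases) exist for Sec61b, Sec61g, Ssr2 and Derl1, so their counts depend on how shared reads were assigned. No strand-marking step is described. Exons overlap a gene on the opposite strand over 12.8% of the exon length of Ssr2, 16.3% of Spcs1, 8.16% of Sec61a1, 8.05% of Eif2ak3 and 10.3% of Hsp90b1. Those of Manf overlap 4930524O07Rik over 4.71% and Dcaf1 over 4.14%. Some other members have smaller overlaps. In such stretches the reads of the overlapping genes cannot be told apart.

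**Figure D4:**
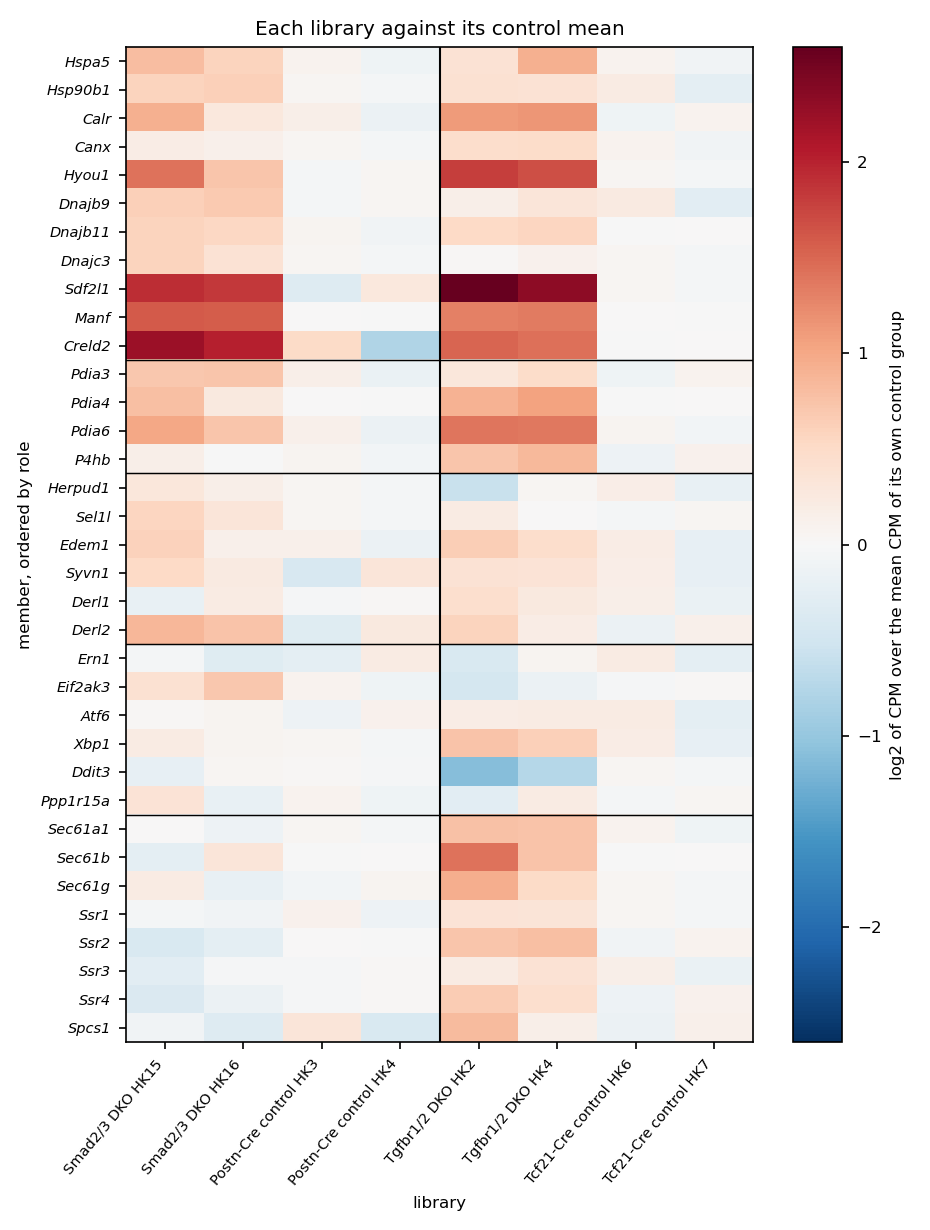
Log2 of the CPM of each member (row, ordered by role) in each library (column) over the mean CPM of the control group of the same run; red is above and blue below that mean. Sdf2l1, Manf, Creld2 and Hyou1 are red in all 4 knockout libraries, and all 8 translocon rows are red in both Tgfbr1/2 DKO columns.

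Whether the knockout effects differ was tested as an interaction over all 8 libraries, given here as the Smad2/3 effect minus the Tgfbr1/2 effect. No member passed, where 1.83% of 17772 genes did in either direction. An unadjusted p below 0.05 was found for 12 members, 1 positive and 11 negative, beside 7.91% positive and 9.49% negative of all genes. DESeq2 called 3, all negative (P4hb, Sec61a1 and Ssr2), beside 2.53% positive and 4.43% negative of the genes it gave an adjusted p. Ssr2 had the smallest adjusted p, with a difference of -1.22 ± 0.28, adjusted p = 0.0519 and a 95% interval of -1.83 to -0.62, followed by Sec61a1 (-0.95 ± 0.23, adjusted p = 0.0659, interval -1.46 to -0.45). P4hb (-0.86 ± 0.27, adjusted p = 0.131), Ssr4 (-0.96 ± 0.33, adjusted p = 0.171) and Xbp1 (-0.69 ± 0.24, adjusted p = 0.172) came next. All 8 translocon genes had a negative difference (median -0.90), and 7 of them had an unadjusted p below 0.05. For Manf the difference was 0.11 ± 0.26, adjusted p = 0.881, with an interval of -0.45 to 0.67, and for Creld2 0.50 ± 0.47, adjusted p = 0.643, with an interval of -0.54 to 1.54. The median over the 11 lumenal chaperones was -0.13, and 1 of them, Hyou1, had an unadjusted p below 0.05. Without any 1 library the count of called members stayed at 0. With library totals only, the median difference over all genes was 0.16, beside 0.01 here, and all 8 translocon differences were negative under every alternative.

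The control groups were set side by side as well, in a comparison that shares its libraries with those above and in which driver and run cannot be told apart. Of the 35 members, 9 were higher and 5 lower in Postn-Cre control than in Tcf21-Cre control libraries, where 16.6% of 16573 genes were called higher and 17.3% lower. The median was -0.15, beside -0.07 for all genes. Higher were the folding genes Hspa5 (0.91 ± 0.19, adjusted p = 0.0113), Hsp90b1 (0.92 ± 0.21, adjusted p = 0.0144), Canx (0.87 ± 0.18, adjusted p = 0.00949), Pdia3 (1.29 ± 0.22, adjusted p = 0.00483), Dnajb9 (1.47 ± 0.21, adjusted p = 0.00288) and Dnajc3 (0.56 ± 0.17, adjusted p = 0.0401). Also higher were the sensors Atf6 (1.68 ± 0.21, adjusted p = 0.00227) and Ern1 (1.40 ± 0.23, adjusted p = 0.00483), and Ssr3 (1.10 ± 0.19, adjusted p = 0.00559). Lower were Sec61b (-1.61 ± 0.35, adjusted p = 0.0118), Ssr2 (-1.02 ± 0.22, adjusted p = 0.0109), Ppp1r15a (-1.0 ± 0.19, adjusted p = 0.00713), Syvn1 (-0.92 ± 0.28, adjusted p = 0.0393) and Pdia4 (-0.79 ± 0.18, adjusted p = 0.0139). Atf6 was at 332 and 395 CPM in Postn-Cre control libraries, against 168 and 119.9 CPM in Tcf21-Cre control libraries. Manf differed by 0.09 ± 0.23, adjusted p = 0.785, and was not called; in CPM it was at 24.2 and 23.8 in Postn-Cre control libraries, against 28.4 and 28.3 in Tcf21-Cre control libraries.

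Several of these calls rested on single libraries. Without Postn-Cre control HK3, adjusted p was 0.0735 for Hspa5, 0.0635 for Hsp90b1, 0.185 for Dnajc3 and 0.0883 for Syvn1. Without Tcf21-Cre control HK7 it was 0.0522 for Pdia4, 0.0865 for Sec61b and 0.0731 for Ssr2. Dnajc3 also lost its call without any of the others (0.0954, 0.086 and 0.109 without HK4, HK6 and HK7), and Syvn1 without HK6 (0.112). With scaling by library total alone, the split was 5 higher and 14 lower and the median of all genes was -0.41. Hspa5 (adjusted p = 0.0632), Hsp90b1 (0.0852), Canx (0.0623) and Dnajc3 (0.367) then lost their calls, and the 5 higher were Atf6, Dnajb9, Ern1, Pdia3 and Ssr3.

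Cell markers differed between the controls as well. Fibroblast markers summed to 21349 and 18590.0 CPM in Postn-Cre control libraries, against 29355 and 36256 CPM in Tcf21-Cre control libraries. Of the 10, 4 were called: Ddr2 higher (0.97), and Pdgfrb (-1.41), Tcf21 (-2.06) and Postn (-3.25) lower. Of all genes tested between the controls, 16.6% were called higher and 17.3% lower. Postn, whose locus carries the Cre in 1 of the groups, was at 208 and 186 CPM in Postn-Cre control libraries, against 1616 and 3076 CPM in Tcf21-Cre control libraries. Endothelial markers summed to 507 and 257 CPM in Postn-Cre control libraries, against 457 and 414 CPM in Tcf21-Cre control libraries (Flt1 and Pecam1 higher, Eng lower). Pericyte and smooth muscle markers summed to 1458 and 791 CPM in Postn-Cre control libraries, against 774 and 445 CPM in Tcf21-Cre control libraries (Rgs5 higher, Des lower). Myeloid markers summed to 25.6 and 32.2 CPM in Postn-Cre control libraries, against 46.0 and 63.0 CPM in Tcf21-Cre control libraries (Lyz2 lower). Cardiomyocyte markers summed to 661 and 717 CPM in Postn-Cre control libraries, against 564 and 574 CPM in Tcf21-Cre control libraries. Most of these sums was Atp2a2, at 451 and 534 CPM against 396 and 325 CPM, which was called higher. The other 9 cardiomyocyte markers were not called. No lymphocyte or erythroid marker was called. Their part in the control comparison was not tested.

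Levels between genes were compared per kilobase of exon length, the union of all annotated exons of a gene. This length can exceed that of the main transcript and then lowers the level per kb. It was 8049 bases for Derl2 and 3524 for Manf. As a mean over all 8 libraries Hsp90b1 stood first at 383 CPM per kb, followed by Hspa5 at 353, Pdia3 at 314, Ssr3 at 162 and P4hb at 154 CPM per kb. Derl2 was last at 3.34 CPM per kb, below Eif2ak3 at 4.98 and Ssr4 at 7.53 CPM per kb. Hsp90b1 and Hspa5 lay close to each other in each group, with means of 570 and 523 CPM per kb in Smad2/3 DKO libraries, 377 and 323 in Postn-Cre control, 330.2 and 348 in Tgfbr1/2 DKO, and 253 and 218 in Tcf21-Cre control libraries. The order changed between groups: Pdia3 came second in Smad2/3 DKO (539) and Postn-Cre control libraries (328), whereas in Tgfbr1/2 DKO libraries P4hb (266) and Calr (227) stood above Pdia3 (222), and in Tcf21-Cre control libraries Pdia3 (169) was followed by P4hb (154) and Ssr3 (119.0). Derl2 was last in each group but Tgfbr1/2 DKO, where Eif2ak3 was at 4.84 and Derl2 at 4.99 CPM per kb. The genes with the highest fold changes were of low or middle level, with Creld2 at 27.9, Hyou1 at 19.1, Manf at 13.9 and Sdf2l1 at 10.6 CPM per kb (ranks 18, 25, 28 and 31 of 35). In Tgfbr1/2 DKO libraries Sdf2l1 ranked 22, against 34 in Tcf21-Cre control libraries.

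**Figure D5:**
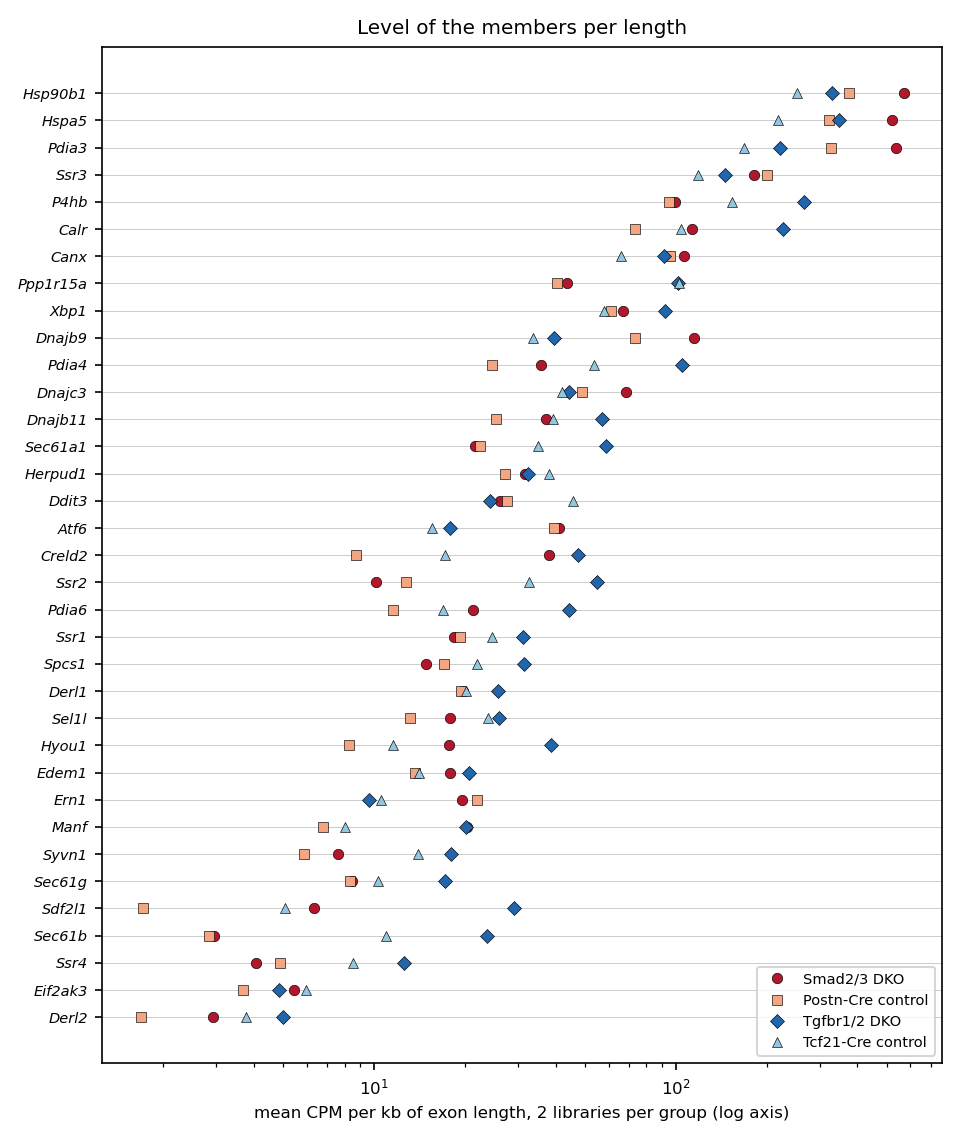
Mean level of each member in CPM per kilobase of exon length (log axis) in the 4 groups, ordered by the mean over all 8 libraries. Hsp90b1, Hspa5 and Pdia3 head this order, with P4hb and Calr above Pdia3 in Tgfbr1/2 DKO libraries. The 2 knockout symbols of Manf coincide, but levels are scaled by library total and these groups came from separate runs.

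Of 105 further ER and secretory genes in 7 lists that hold no member, 0 were called in the Smad2/3 comparison (4 higher and 7 lower with an unadjusted p below 0.05, beside 6.23% and 7.33% of all genes, and 1 and 1 called by DESeq2, beside 1.96% and 2.76%). In the Tgfbr1/2 comparison 9 of 104 tested rose (8.65%, beside 2.63% of all genes) and none fell (beside 1.31%). There 49 were higher and 1 lower with an unadjusted p below 0.05 (beside 11.3% and 8.72% of all genes), and 16 and 0 by DESeq2 (beside 4.49% and 2.56%). The medians were -0.12 and 0.45. N-glycosylation and calnexin cycle genes counted 2 of 15 risen: Ostc, a subunit of the oligosaccharyltransferase, was at 117 and 90.9 CPM in Tgfbr1/2 DKO libraries, against 54.9 and 48.0 CPM in Tcf21-Cre control libraries (1.09 ± 0.18, adjusted p = 0.0123), and Rpn1, another subunit, at 263 and 259 CPM in Tgfbr1/2 DKO libraries, against 142 and 139 CPM in Tcf21-Cre control libraries (0.97 ± 0.18, adjusted p = 0.0206). Both knockout libraries were above both controls for 14 of these 15, beside 21.8% of all genes. Of 22 COPII and ER exit genes 3 rose: Mcfd2, a cargo receptor subunit, was at 93.4 and 93.9 CPM in Tgfbr1/2 DKO libraries, against 46.9 and 42.6 CPM in Tcf21-Cre control libraries (1.15 ± 0.18, adjusted p = 0.00875); Surf4, a cargo receptor, at 360.3 and 325 CPM in Tgfbr1/2 DKO libraries, against 179 and 192 CPM in Tcf21-Cre control libraries (0.96 ± 0.19, adjusted p = 0.0236); and Sec13, a coat protein, at 75.1 and 68.1 CPM in Tgfbr1/2 DKO libraries, against 41.5 and 40.2 CPM in Tcf21-Cre control libraries (0.89 ± 0.18, adjusted p = 0.0238).

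Each remaining list had 1 gene or none called in the Tgfbr1/2 comparison. Spcs3, a signal peptidase subunit, rose among 17 translocation genes (0.86, adjusted p = 0.0344). Cnpy3, a chaperone of Toll-like receptors, rose among 15 oxidoreductases and chaperones (0.94, adjusted p = 0.025), Ube2g2, a ubiquitin-conjugating enzyme, among 14 degradation genes (0.88, adjusted p = 0.0272), and Atf6b, a relative of Atf6, among 7 membrane-bound factors and proteases (1.09, adjusted p = 0.0286). No gene of the 15 in the ATF4 and CHOP arm was called (median 0.21; 3 higher and 0 lower with an unadjusted p below 0.05, and 0 by DESeq2); the smallest p was that of Tnfrsf10b (0.75, adjusted p = 0.0782). Mcfd2 alone of the 9 risen genes kept its call without each of the 4 libraries. Surf4, Sec13, Atf6b and Spcs3 lost theirs without any 1 of them (adjusted p up to 0.0953, 0.104, 0.132 and 0.154). Ostc lost its call without DKO HK2 and control HK7 (up to 0.0556), Rpn1 without DKO HK4, control HK6 and control HK7 (up to 0.0928), Cnpy3 without DKO HK2, DKO HK4 and control HK6 (up to 0.0938), and Ube2g2 without DKO HK2, DKO HK4 and control HK7 (up to 0.114).

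In the Smad2/3 comparison the gene of each list with the smallest p was Ostc (-0.61, adjusted p = 0.427), Spcs2 (1.00, adjusted p = 0.107), Ero1lb (0.71, adjusted p = 0.405), Ube2j1 (0.37, adjusted p = 0.268), Chac1 (-0.92, adjusted p = 0.182), Mbtps2 (-0.69, adjusted p = 0.321) and Sec24d (-0.80, adjusted p = 0.132). Of the 4 genes called for the difference between the effects, all were negative: Ostc (-1.71, adjusted p = 0.0153), Rpn1 (-1.27, adjusted p = 0.02), Lman1, a glycoprotein cargo receptor (-1.28, adjusted p = 0.0327), and Kdelr2, which retrieves ER proteins (-1.02, adjusted p = 0.0486). Ostc lost this call without Tgfbr1/2 DKO HK2 and Tcf21-Cre control HK7 (up to adjusted p = 0.0604). Lman1 lost its call without any library but Postn-Cre control HK4 and Tgfbr1/2 DKO HK2 (up to 0.123), Rpn1 kept its call without those and without Tcf21-Cre control HK6 (otherwise up to 0.0764), and Kdelr2 lost its call without any 1 of the 8 (up to 0.143). In the remaining lists the smallest p for the difference belonged to Tram1 (-0.91, adjusted p = 0.0969), Txndc5 (-0.85, 0.141), Ube2g2 (-1.01, 0.105), Tnfrsf10b (-1.18, 0.077) and Atf6b (-1.10, 0.228).

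Between the controls, 22 of 103 such genes (21.4%) were higher and 25 (24.3%) lower in Postn-Cre control than in Tcf21-Cre control libraries, near the 16.6% and 17.3% of all genes. The genes named here are, for each list, the 4 called ones with the smallest p. In the ATF4 and CHOP arm 7 of 15 were higher, with Eif2s1 at 2.44, Ero1l at 1.75, Tnfrsf10b at 1.70 and Vldlr at 1.26, and 1 was lower, Bbc3 (-3.44, adjusted p = 0.0226), the largest change of the list. Among glycosylation genes 1 was higher and 6 lower, with Ddost at -1.5, Prkcsh at -1.47, Ostc at -1.01 and Uggt2 at 0.88. Translocation genes had 5 higher and 1 lower, with Srp19 at 1.19, Sec63 at 1.08, Srp54a at 0.88 and Sec62 at 0.66. Other oxidoreductases and chaperones had 2 higher and 6 lower, with Ero1l as above, Cnpy3 at -2.18, Sil1 at -2.24 and Tmx3 at 1.19. Degradation genes had 3 higher and 2 lower (Ube2j1 1.71, Ubxn4 1.70, Os9 -1.43, Edem3 0.91), membrane-bound factors 1 higher and 4 lower (Atf6b -1.90, Creb3 -1.47, Mbtps1 -1.10, Tmbim6 -0.97), and exit genes 4 higher and 5 lower (Preb 1.11, Sec24b 1.09, Sec24c -0.99, Sec13 -0.95). Without Tcf21-Cre control HK7 the calls of Prkcsh, Uggt2, Srp54a, Sec62, Atf6b, Creb3 and Sec13 were lost, with adjusted p up to 0.154 (Sec62); Srp54a and Sec13 also lost theirs without control HK6, and Sec62 without either Postn-Cre control library.

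In the authors' deposited table, log2 fold changes of Manf are listed as 1.59 and 1.33 and those of Creld2 as 2.26 and 1.46 in the Smad2/3 and Tgfbr1/2 comparisons. Sdf2l1 is listed there at 1.92 and 2.51, and Ssr2 at -0.33 and 0.75. The authors' deposited table has the same sign as the edgeR fit for 32 of the 35 members in the Smad2/3 comparison and for 34 in the Tgfbr1/2 comparison; both come from the same libraries. The exceptions were Derl1, Sec61b and Sec61g in the first and Ppp1r15a in the second, all with edgeR log2 fold changes within 0.08 of 0.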

How the data were processed

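GFP-positive cardiac fibroblasts were sorted and their total RNA was amplified (Ovation RNA-Seq v2) and tagged with Nextera XT, per the labels' protocols. The deposited tables (2, of 38087 Ensembl genes each) hold the authors' expected counts, marked raw per the file headers; 12.5% of values above 0 are whole. They also deposited log2 fold changes between group means of scaled, centred log2 values. Per the submitters' processing notes the build is mm10. Which aligner and counter were used is not given in the sources used here; no strand-marking step is described.

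Expected counts were rounded and rows of 1 symbol summed (34399 symbols). Groups came from sample titles. edgeR 4.0.16 (R 4.3.3, limma 3.58.1) gave TMM factors, filterByExpr and robust quasi-likelihood tests for each knockout against its control, for the difference of effects over all 8 libraries, and for the controls; calls needed a Benjamini-Hochberg adjusted p below 0.05. Fits were tested on simulated data. Alternatives were other size factors, library totals alone, no filter, no robust step, DESeq2 1.42.0, all 8 libraries in 1 fit, unsummed rows and each library left out. Positions and exon lengths are from GENCODE vM21 (95.3% of identifiers matched), near copies from blastn, promoters from RefSeq. With totals of 21477742 to 32594649, 3 counts equal 0.092 to 0.14 CPM, a limit of counting error only.

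The members and gene lists were chosen with earlier results of these data known. All members are named. Values per library are given for members called in any comparison or among the 5 smallest p-values of one. Of the 7 lists of other ER genes (105 of 107 found), up to 4 called genes with the smallest p are named, or with none called the gene with the smallest p. Protein retention signals, planned, are not analysed here.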

Additional observations from a re-analysis of the deposited data

How the results depend on the processing

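The count of called members in the Smad2/3 comparison, 2 of 35, became 5 with scaling by library total only, 9 without the low-count filter, 9 with DESeq2, 4 in a fit of all 8 libraries, and between 1 and 4 with 1 library left out. Other size factors, no robust estimation and unsummed rows left it at 2. In the Tgfbr1/2 comparison, 10 became between 5 and 7 with 1 library left out, and between 8 and 15 under the other alternatives. For the difference between the effects, 0 became 1 with RLE size factors (Ssr2), 2 without the filter (Sec61a1 and Ssr2) and 3 with DESeq2; with 1 library left out it was 0 each time. Between the controls, 14 became between 10 and 15 with 1 library left out and 19 with library totals only. The members' median log2 fold change lay between 0.18 and 0.33 (Smad2/3), between 0.53 and 0.65 (Tgfbr1/2) and between -0.38 and -0.06 (controls) with 1 library left out, and that of the controls was -0.49 with library totals only. For single members, 331 values kept direction and side of the threshold, 39 lost and 19 gained a call, and none reversed. Over all genes, 206 calls in the Smad2/3 comparison became 819 without the filter, 744 with DESeq2 and between 100 and 288 with 1 library left out; 657 in the Tgfbr1/2 comparison became 1198, 1129 and between 273 and 492, and 299 in the fit of all 8 libraries. For the difference, 326 became 1190, 1117 and between 89 and 293, and for the controls 5613 became between 3163 and 6818 with 1 library left out. The causes were not tested. With 1 library left out, a group of 1 takes its spread from the other groups. No paired analysis was possible because the groups compared share fewer than 2 replicate numbers. With 2 libraries per group, precision is set by their number, and genes near 1 CPM rest on few counts.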
